A study of Mus musculus with 18 samples.

Results

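The 9 genes described here, Dclk1, Trpm5, Pou2f3, Gfi1b, Alox5ap, Il25, Avil, Sh2d6 and Ptgs1, are markers of tuft cells and were chosen by name. Every probe that carries one of these names was taken, which gave 19 of 56605 probes on the array and 9 of 37074 gene names. Of these, 12 probes of 7 genes passed the filter on dim probes, which asked that in some group 5 or more of the 6 arrays read a probe well above its background. The probes of Pou2f3 and Il25 did not pass.

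Tuft cells are rare chemosensory cells of the intestinal epithelium. Luminal signals reach the cation channel Trpm5 through a taste-like cascade, and the cells release the cytokine Il25 and lipid mediators made through Ptgs1 and the leukotriene pathway. Il25 acts on type 2 lymphoid cells, whose Il13 in turn favours tuft and goblet cells. The transcription factor Pou2f3 is required for tuft cells to form.

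RNA of ileum cells was profiled in male mice on a C57BL6/J background, with 1 one-colour Agilent array per sample and 6 arrays per group. The groups were iPGC1afl/fl mice on CHOW, iPGC1afl/fl mice on HFD and iPGC1a-/- mice on HFD. Diets began at 8 weeks of age and lasted 8 weeks, and HFD, the Western diet of the study, gave 42% of energy as fat with 0.2% cholesterol. In iPGC1a-/- mice Ppargc1a, a transcriptional coactivator of mitochondrial metabolism, is deleted by a Cre under the Vil1 promoter, which is active across the intestinal epithelium, and iPGC1afl/fl littermates carry the floxed alleles without Cre. The cells were released from the ileum by chelation, so that each array holds a mixture of epithelial cells and of any immune cells that came off with them. In such bulk samples, fewer tuft cells and less RNA per tuft cell cannot be told apart. iPGC1a-/- mice on CHOW were not analysed here.

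Replicates 2 and 3 of iPGC1afl/fl on HFD, on different slides, differed by less than repeated spots of one probe on a single array. Over the 300 bright probes that varied most in the other groups, the median absolute deviation of their log2 difference was 0.0816, against 0.398 to 0.933 for the 44 other pairs of arrays within a group and 0.103 to 0.152 between repeated spots. They were averaged and counted as 1 sample, so that iPGC1afl/fl on HFD has n = 5 below, and results with all 18 arrays as separate samples are given where they differ. The arrays had 56.3% to 62.3% of spots well above background and no saturated spot. Their median signals ran from 39 units, in iPGC1afl/fl on HFD replicate 6, to 61, in iPGC1a-/- replicate 5. The lowest shares, under 58%, were those of iPGC1afl/fl on HFD replicates 2, 3 and 6 and of iPGC1a-/- replicate 1. Neither probe of Ppargc1a was lower on the arrays labelled iPGC1a-/- than in iPGC1afl/fl on HFD, with log2 differences of 0.31 ± 0.17 and 0.40 ± 0.17 (SE; limma adjusted p = 0.577 and 0.512), and whether these probes lie in the deleted exons was not determined, so they check nothing.

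Probe sequences are shown for the members on which the results turn, as the first 30 of 60 bases, 5′ to 3′. Trpm5 is shown with both of its probes because only the first gave signal, Sh2d6 because its probe was the brightest of the 19, and Ptgs1 because it had the lowest genotype difference.
Trpm5, A_66_P131008, chr7:150257434-150257456: tatgacggatacactggctccaggaggcac
Trpm5, A_52_P368984, chr7:150266961-150267130: atcaaccacattctcctataaagaggatgc
Sh2d6, A_66_P116348, chr6:72463717-72463776: cacctgggaggctggcttcctcagagacac
Ptgs1, A_51_P279100, chr2:36107644-36107703: gagccacacttagactctttccaaagatgt
Positions are those of the array annotation on mm9. The probes of Trpm5 and Sh2d6 lie on the minus strand and that of Ptgs1 on the plus strand. For the first Trpm5 probe the annotation places only 23 of 60 bases on the genome, and the span of the second, 170 bases, is longer than the probe. Whether a probe lies in an exon, intron or UTR was not determined.

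The dim probes were looked at first, because they include the factor that defines the tuft lineage. Pou2f3 had 2 probes, well above background on 4 and 9 of 18 arrays, with scanned signals of 26 to 38 and 26 to 39 intensity units where the local background was 15 to 22. Il25 had 1 probe, well above background on 4 of 18 arrays, with signals of 22 to 35. The second Trpm5 probe was at 17 to 29 and was not well above background on any array. The first Pou2f3 probe was well above background on replicates 2, 3 and 6 of iPGC1afl/fl on HFD and replicate 5 of iPGC1a-/-, and on no CHOW array. The second was so on 2 of 6 CHOW arrays, on replicates 2, 3, 4 and 6 of iPGC1afl/fl on HFD and on 3 of 6 iPGC1a-/- arrays. Il25 was so on replicates 5 and 6 of CHOW and 3 and 6 of iPGC1afl/fl on HFD, and on no iPGC1a-/- array. Pou2f3 and Il25 were thus detected on some arrays, close to background, and were not compared between groups. Dclk1, a doublecortin-like kinase, had 3 of 5 probes above the filter and Ptgs1, cyclooxygenase 1, 1 of 2.

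**Figure D1:**
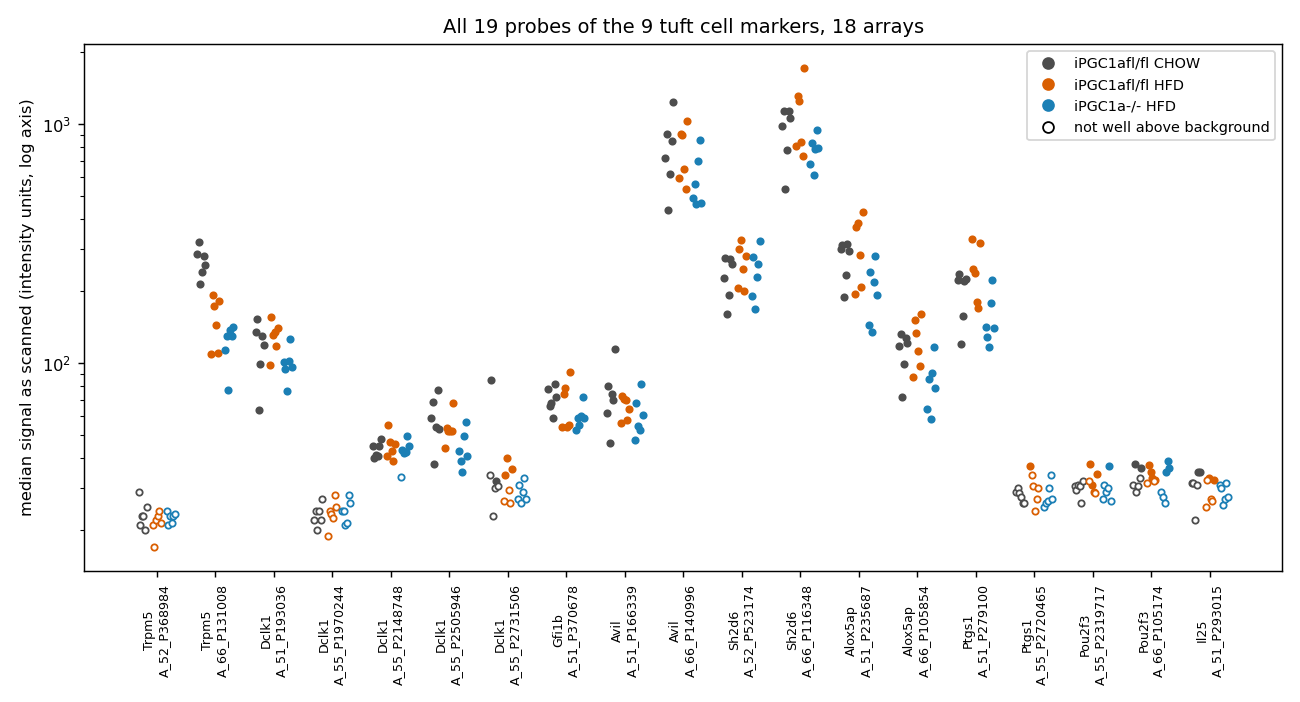
Median signal as scanned, in intensity units on a log axis, of the 19 probes on the 18 arrays, coloured by group, with open points for spots not well above background. Sh2d6 and Avil have the highest signals, reaching 1722 and 1243, while Pou2f3 and Il25 stay under 40 on every array.

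For HFD against CHOW in iPGC1afl/fl mice, a gene counted as called when the limma adjusted p of one of its probes was 0.05 or lower and its fold change was above 1.5. Of the 7 tested members 1 was called, Trpm5, which fell, and none rose. Over all tested genes 8.49% were called in this comparison, 3.25% higher and 5.25% lower, so that 1 of 7 is not far from the background. At an unadjusted p under 0.05 there were 2 members, Trpm5 and Ptgs1, and 32.2% of all tested genes.

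Trpm5 is the calcium-activated cation channel at the end of the taste-like cascade. On CHOW its log2 normalized signals ran from 7.80 through a median of 7.90 to 8.12. In iPGC1afl/fl on HFD the 5 samples were at 6.62, 6.63, 6.99, 7.82 and 7.98. In iPGC1a-/- on HFD they ran from 6.51 through 6.97 to 7.33. The CHOW samples were close together, 3 of the 5 HFD samples lay below all of them, and the averaged replicate 2 and 3 and replicate 6 lay among them. The mean fell from 7.94 ± 0.14 (SD, n = 6) to 7.21 ± 0.65 (SD, n = 5), a log2 difference of -0.73 ± 0.22 (SE) and a 1.66-fold lower signal (limma adjusted p = 0.0254; two-sided exact permutation test p = 0.0260). As scanned, before any normalization, the groups did not overlap, with 215 to 321 units on CHOW and 109 to 192.5 on HFD. Replicates 2, 3 and 6 on HFD were dimmer arrays as a whole, with median signals of 44, 41.5 and 39 against 47 to 53.5 on CHOW. The part of array brightness in the scanned difference was not tested, and the share of all probes that separate as scanned was not determined. Within the 3 slides, each with 2 arrays per group, the difference was -0.78, -0.63 and -0.46. These values use all 18 arrays, so the averaged replicates 2 and 3 enter apart, on slides 1 and 2. The slides are therefore not independent repeats. With 18 separate arrays it was -0.63 (adjusted p = 0.0408). Without replicate 1, 4 or 5 of iPGC1afl/fl on HFD the adjusted p was 0.0714, 0.0599 and 0.0805 and the gene was no longer called.

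Trpm5 had its lowest mean where diet and genotype both differed, but the median of iPGC1a-/- on HFD, 6.97, was near the 6.99 of iPGC1afl/fl on HFD. Between iPGC1a-/- on HFD, at 6.93 ± 0.32 (SD, n = 6), and iPGC1afl/fl on CHOW the groups did not overlap, and the log2 difference was -1.01 ± 0.21 (SE), 2.01-fold lower (limma adjusted p = 0.00109; two-sided exact permutation test p = 0.00216, the smallest that 6 against 6 samples can give). All 34 alternative settings kept this call, with differences of -1.26 to -0.86. Over all tested genes the samples of these groups did not overlap for 8.65%, lying lower, and for 7.53%, lying higher. Within slides it was -1.12, -0.70 and -1.20. Over all tested genes 13.3% were called in this comparison, 5.77% higher and 7.55% lower, and among the 7 tested members Trpm5 was the only one called. The comparison shares its samples with the other comparisons, and diet and genotype cannot be told apart in it.

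The other 6 tested members were not called between HFD and CHOW, and their log2 differences ran from 0.03 for Gfi1b to 0.49 for Ptgs1. Gfi1b, a zinc finger repressor of transcription, differed by 0.03 with a 95% interval of -0.36 to 0.42. Avil, which encodes the actin-binding protein advillin, differed by 0.06 with an interval of -0.44 to 0.57. Dclk1 differed by 0.33 with an interval of -0.06 to 0.71 at its brightest probe. Sh2d6, an SH2 domain protein, differed by 0.29 with an interval of -0.25 to 0.84. These intervals reach 0.42 or higher on the log2 scale, so that similar levels are not shown.

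Alox5ap and Ptgs1 feed the eicosanoid pathways, the first as the partner of 5-lipoxygenase and the second as the enzyme of prostaglandin synthesis. Alox5ap differed by 0.24 with an interval of -0.30 to 0.77 at its brighter probe. Ptgs1 was at 7.04 through 7.58 to 7.75 on CHOW. In iPGC1afl/fl on HFD its samples were at 7.24, 7.30, 8.21, 8.25 and 8.81. In iPGC1a-/- on HFD it ran from 7.13 through 7.31 to 7.34. On HFD, 3 floxed samples were above all others of the study and 2 lay within the CHOW range. The difference for HFD was 0.49 ± 0.22 (SE; limma adjusted p = 0.128; two-sided exact permutation test p = 0.134), and it was called without replicate 4 or 5 of iPGC1afl/fl on HFD (adjusted p = 0.0384 and 0.0308).

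**Figure D2:**
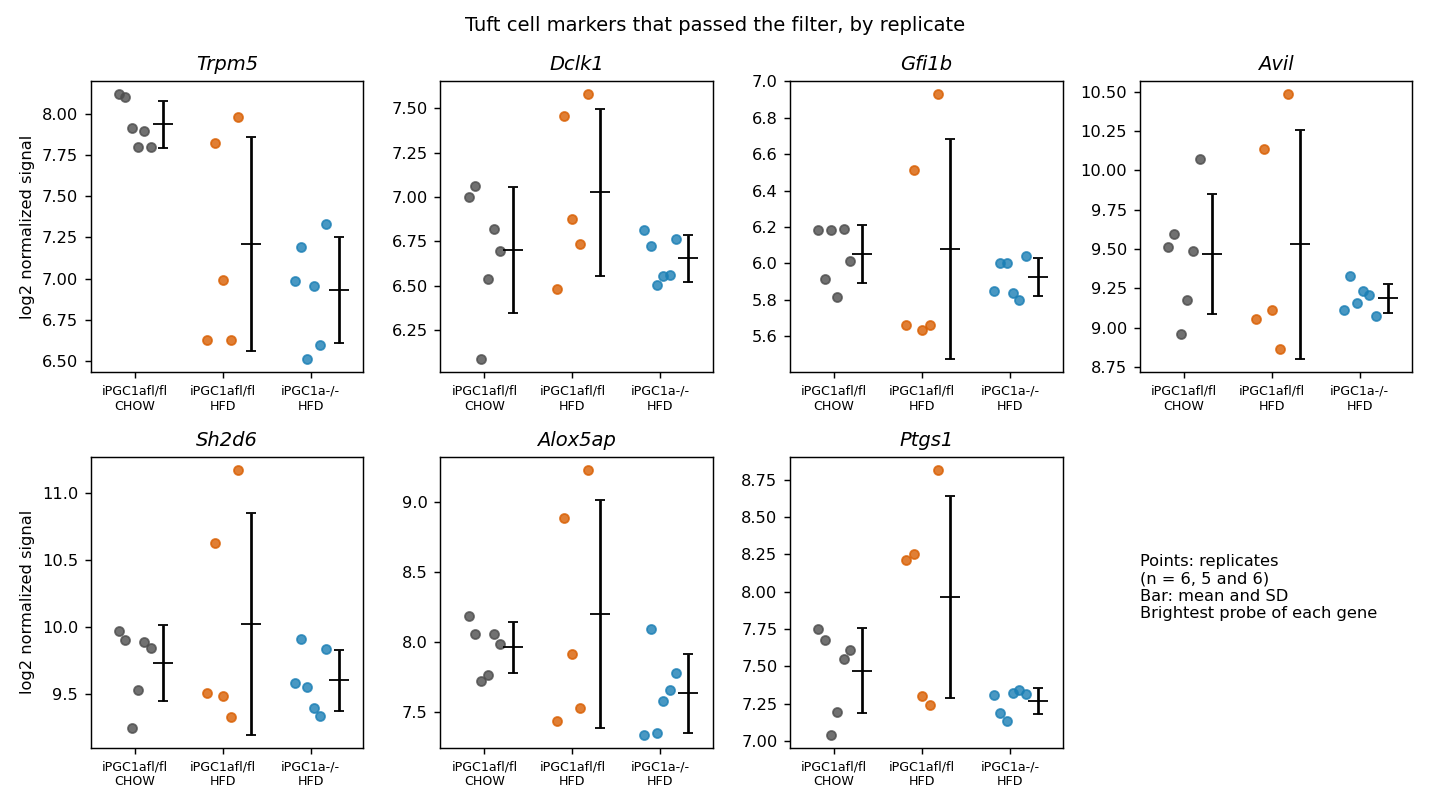
Log2 normalized signal of the brightest probe of each tested member, by group, with points for replicates (n = 6, 5 and 6) and bars for mean and SD. Trpm5 in iPGC1a-/- on HFD lies below every CHOW sample, and in iPGC1afl/fl on HFD the same samples, the averaged replicate 2 and 3 and replicate 6, are the highest for all 7 members.

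For iPGC1a-/- against iPGC1afl/fl on HFD, none of the 7 tested members was called. Here limma called 26 genes in all, 0.121% of those tested, and at an unadjusted p under 0.05 there were 2 members, Alox5ap and Ptgs1, and 8.95% of all tested genes. All 12 probes were lower in iPGC1a-/-. The median over the 7 brightest probes was -0.37, beside 0.00 over all tested genes, of which 49.0% were below 0. Without the 4 arrays under 58% the direction turned for 5 of the 7 members, with Trpm5 at 0.17, Gfi1b at 0.29, Avil at 0.19, Sh2d6 at 0.17 and Alox5ap at 0.068, and Dclk1 and Ptgs1 stayed below 0. Those arrays include the iPGC1afl/fl arrays on HFD that were highest for the members, so a shift upwards follows from leaving them out. Ptgs1 had the lowest value, -0.70 ± 0.22 (SE; limma adjusted p = 0.391, unadjusted p = 0.00446), with a two-sided exact permutation p of 0.0325, and -0.47, -0.93 and -0.84 within slides. The slides are not independent repeats, since the averaged replicates 2 and 3 of iPGC1afl/fl on HFD enter slides 1 and 2 apart. With 18 separate arrays Ptgs1 was at -0.74 (limma adjusted p = 0.223). The probes of Alox5ap were at -0.56 ± 0.25 and -0.58 ± 0.21 (SE; limma adjusted p = 0.522 and 0.464). Their two-sided exact permutation p was 0.171 at the brighter probe and 0.0498 at the other. Trpm5 differed by -0.28 with a 95% interval of -0.74 to 0.18.

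**Figure D3:**
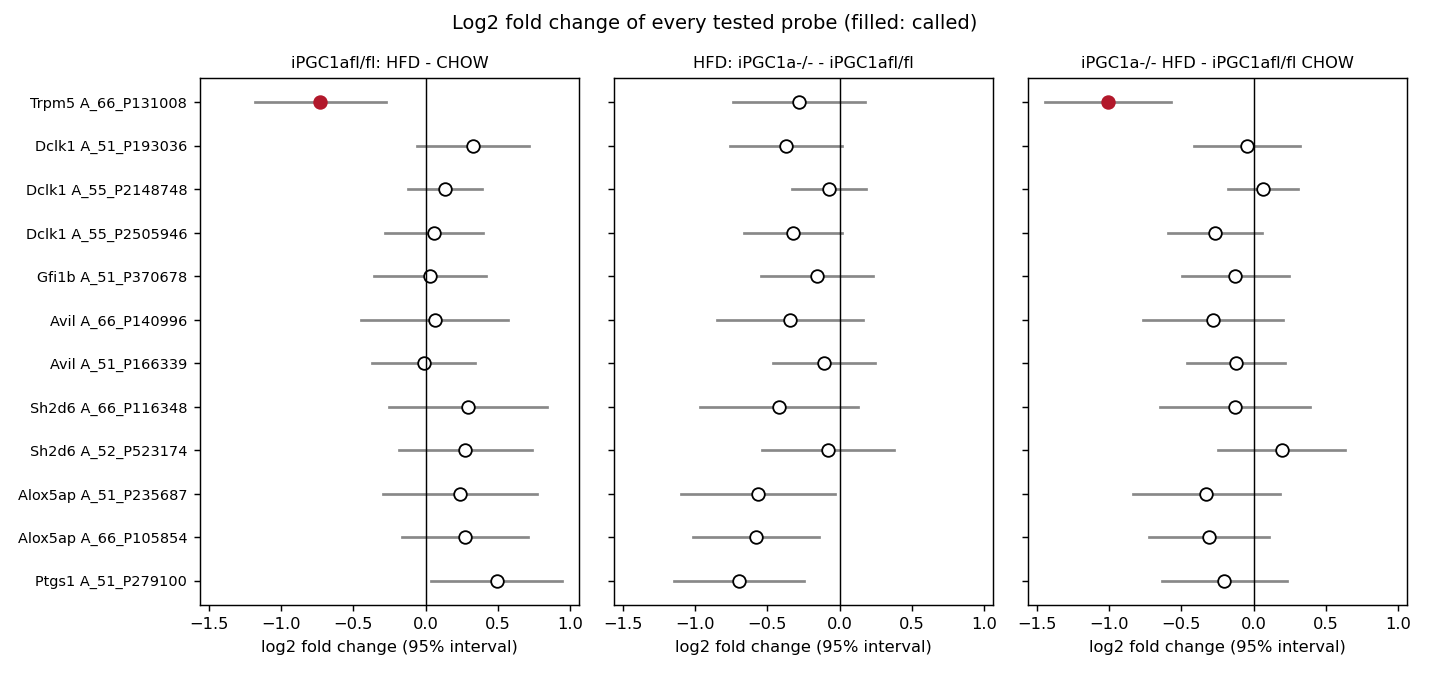
Log2 fold change with its 95% interval for the 12 tested probes in the 3 comparisons, filled where called. Trpm5 is called at -0.73 and -1.01, and all 12 points of the genotype comparison lie below 0, where 5 of 7 members turn above 0 without the 4 arrays under 58%.

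The members rose and fell together among the samples of iPGC1afl/fl on HFD. Their SD was higher in this group than in the others for 11 of 12 probes, where the same held for 27.8% of all tested probes. The median SD over the 12 probes was 0.63 in this group, 0.25 on CHOW and 0.18 in iPGC1a-/- on HFD, beside 0.16, 0.18 and 0.17 over all tested probes. Sh2d6, for example, was at 9.33, 9.49, 9.51, 10.63 and 11.18 in iPGC1afl/fl on HFD, and at 9.34 through 9.57 to 9.91 in iPGC1a-/- on HFD. Avil was at 8.87, 9.05, 9.11, 10.14 and 10.48 in the first group and at 9.07 through 9.18 to 9.33 in the second. In both cases the averaged replicate 2 and 3 and replicate 6 stood above all other samples of the study on either diet, and the 3 remaining floxed samples overlapped with iPGC1a-/-.

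The arrays with high members were also those with the lowest shares of spots well above background, at 56.3%, 56.8% and 57.0% against 59.6% to 61.7% for the other arrays of the group. The arrays of replicates 2 and 3 count as 1 sample, so their near-equal values here and below are not separate observations. iPGC1a-/- replicate 1 had a share of 56.7% and was not high for the members, with a mean over them of -0.33 from the CHOW mean. On the 3 high arrays the mean over 7 goblet cell markers was -0.96, -1.07 and -1.29 from the CHOW mean, and on the 3 others it was -0.14, -0.39 and -0.52. For the 4 proliferation markers the same values were -0.96, -0.99 and -0.76 against -0.36, -0.20 and -0.37. Mast cell and basophil markers moved with the members in part. With group means removed, their Pearson correlations with the mean of the members were 0.79 for Fcer1a and 0.64 for Mcpt1. Those of Tpsb2, Mcpt2 and Kit were 0.30, 0.10 and -0.14. The mean over the 5 tested was 0.29, 0.24 and 0.12 on the 3 high arrays and -0.42, -0.31 and -0.50 on the 3 others, and all 5 were lower in iPGC1a-/- on HFD than in iPGC1afl/fl on HFD. Their summed scanned signal was 535 to 916.5 units on CHOW, 445 to 680 in iPGC1afl/fl on HFD and 345.5 to 492 in iPGC1a-/- on HFD, and Cpa3 and Ms4a2, the other listed markers, did not pass the filter on dim probes. The part of these lists and of the share of spots in the members' spread was not tested. Leaving out the 4 arrays with under 58%, an alternative chosen after the data were seen, turned the HFD differences of Dclk1, Gfi1b, Avil, Sh2d6 and Alox5ap below 0, to between -0.0011 and -0.46. This takes out all 3 high arrays and leaves n = 3 in iPGC1afl/fl on HFD. Lower HFD differences thus follow from the choice of arrays, and this fit is no further test of them. Trpm5 was then at -1.19 for HFD against CHOW (limma adjusted p = 0.000259). No other member was called in that fit, where Gfi1b, at -0.40, passed on p but not on fold (limma adjusted p = 0.0186).

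**Figure D4:**
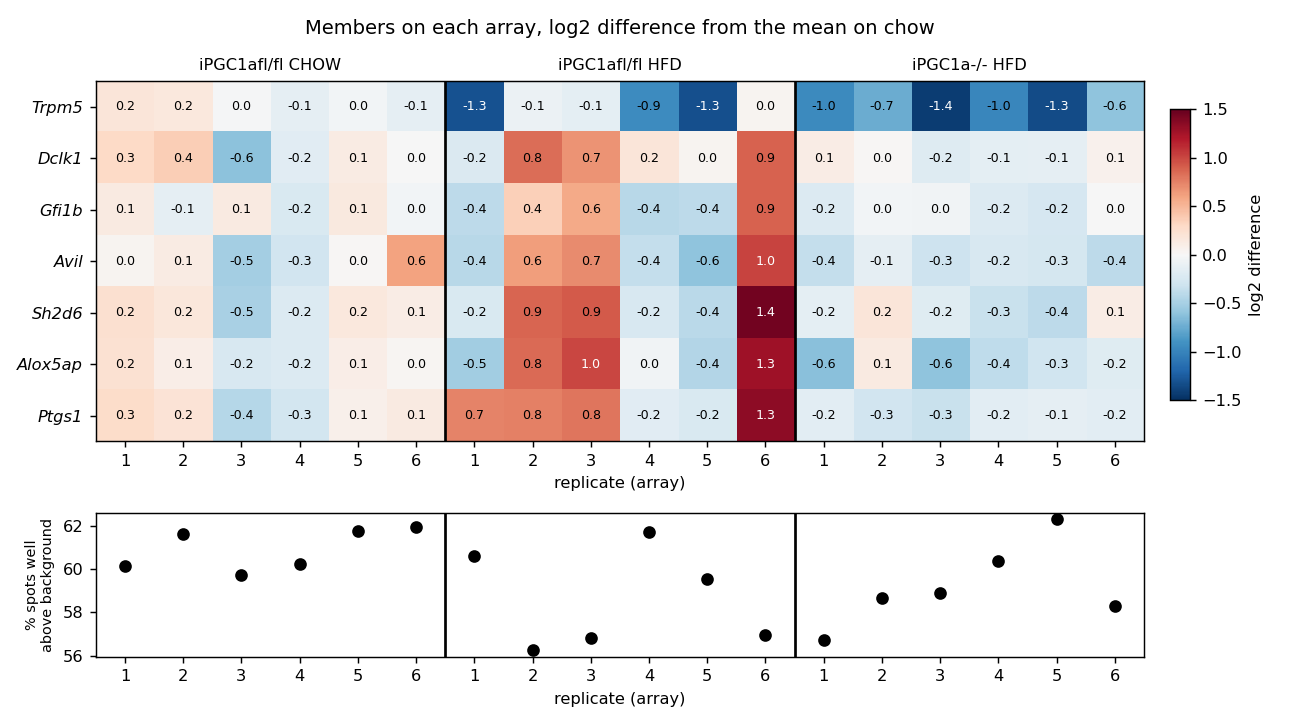
Upper panel, log2 difference from the CHOW mean for the 7 tested members on each of the 18 arrays, red above and blue below. Lower panel, percent of spots well above background on the same arrays. Replicates 2, 3 and 6 of iPGC1afl/fl on HFD are red for 6 members and near 0 for Trpm5, and have 56.3% to 57.0% of spots above background. Replicates 2 and 3 of this group count as 1 sample.

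Trpm5 moved with the other members among samples but lay lower against them on HFD. Within each sample its difference from its own CHOW mean was set against the mean difference of the other 6 members, a measure chosen after the values were seen and given as a description. It was -0.28 to 0.34 on CHOW, -1.14 to -0.77 in iPGC1afl/fl on HFD and -1.14 to -0.51 in iPGC1a-/- on HFD, so that both HFD groups lay below CHOW without overlap. The share of all genes that separate on such a measure was not determined. Trpm5 was already known to be lower, so the lack of overlap adds no test. In the sample with the highest members, replicate 6 of iPGC1afl/fl on HFD, the others were 1.14 above their CHOW mean and Trpm5 was 0.04 above its own. Ptgs1 measured in the same way was at -0.14 to 0.09 on CHOW and at 0.14 to 1.25 in iPGC1afl/fl on HFD, and overlapped with CHOW in iPGC1a-/-. No other member was free of overlap with CHOW in both HFD groups.

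Across the 17 samples, with group means removed, the 21 pairs of members had Pearson correlations of 0.61 to 0.93 with a median of 0.81, given as a description of samples that share a normalization. Without the 2 samples farthest from the median, replicates 5 and 6 of iPGC1afl/fl on HFD, they were 0.27 to 0.86 with a median of 0.71. Alox5ap and Sh2d6 were the closest pair, and Trpm5 and Ptgs1 the least close. The 5 other genes most like the mean of the members were Alox5 at 0.97, Gprc5c at 0.95, Tmem229a at 0.95, Bmx at 0.95 and Strip2 at 0.95. Alox5 encodes 5-lipoxygenase, whose partner Alox5ap is a member, and Bmx a tyrosine kinase of the Tec family.

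Likeness to single members differed between them. The genes nearest to Dclk1 were Pik3r5 and Alox5, both at 0.94. Those nearest to Avil were Tmem229a, Strip2 and Rgs13, at 0.94, 0.93 and 0.91, and to Gfi1b Ly6g6d, Matk and AK079976, at 0.92, 0.91 and 0.91. Alox5, Bmx and Matk at 0.96, 0.95 and 0.94 stood nearest to Sh2d6. Alox5, Nrgn and Gng13, a G protein subunit of taste transduction, stood nearest to Alox5ap at 0.95, 0.95 and 0.93. The nearest genes to Ptgs1 were St6galnac6, Tuba1a and Reep5, at 0.96, 0.86 and 0.86. Nearest to Trpm5 were Sprr2j-ps, Sprr2k and Sprr2b, at 0.93, 0.92 and 0.92, of the small proline-rich family, whose near-identical copies can share probes. Its correlations with the members Alox5ap and Sh2d6 were little lower, at 0.90 and 0.87, so the ranking does not set Trpm5 apart from the members.

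Other genes of tuft cells were taken from 4 lists of 58 genes, of which 51 were tested. Where the text says that samples did not overlap between HFD and CHOW in iPGC1afl/fl mice, the same held over all tested genes for 5.32% that lay higher and 5.53% that lay lower. Between HFD and CHOW in iPGC1afl/fl mice 2 were called higher and 6 lower, 15.7% in all beside 8.49% of all tested genes, and their median log2 difference was 0.07. Between the genotypes on HFD none was called by limma and 11 had an unadjusted p under 0.05, 44 of 51 were lower in iPGC1a-/-, beside 49.0% of all tested genes, and the median was -0.24. For the 29 genes of signalling, receptors and cytoskeleton, the mean from CHOW was 0.08, 0.09 and 0.29 on replicates 2, 3 and 6 of iPGC1afl/fl on HFD, and -0.33, -0.39 and -0.39 on replicates 1, 4 and 5, which lay within the -0.49 to -0.29 of iPGC1a-/- on HFD. Replicates 2 and 3 count as 1 sample here too. Between iPGC1a-/- on HFD and iPGC1afl/fl on CHOW 2 were called higher and 12 lower, 27.5% beside 13.3%, and the median was -0.18. With group means removed, the called genes differed in their Pearson correlations with the mean of the members. They were -0.75 for Rgs2, -0.26 for Ffar2, 0.04 for Atp2a3, 0.07 for Ildr1, 0.34 for Pou2af2 and 0.40 for Limd2. Fyb, Rac2, Ltc4s and Cd24a were at 0.45, 0.46, 0.47 and 0.50, and Runx1, Inpp5d, Vav1 and Lrmp at 0.54, 0.64, 0.72 and 0.90. Whether the calls concern tuft cells was not tested.

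Of the chemosensory cascade, none of 10 tested genes was called by limma between HFD and CHOW, and 3 had an unadjusted p under 0.05. Gng13, the G protein subunit upstream of the phospholipase, was at 0.45 (limma adjusted p = 0.0585), and Plcb2, the phospholipase that acts before Trpm5, was at 0.21 (adjusted p = 0.287). Sucnr1, the receptor for succinate, was at 0.11 (limma adjusted p = 0.806). The short-chain fatty acid receptor Ffar2 was at -0.52, which passed on p but not on fold. In iPGC1a-/- on HFD against CHOW, Ffar2 fell by 0.64 ± 0.13 and Rgs2, a regulator of G protein signalling, fell by 0.59 ± 0.22 (SE; limma adjusted p = 0.00112 and 0.0441).

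Among 7 tested transcription factors and coactivators, 1 was called higher and 1 lower between HFD and CHOW. Pou2af2, the coactivator partner of Pou2f3 that the array lists under an older name, rose from 8.16 ± 0.61 (SD, n = 6) to 9.39 ± 0.21 (SD, n = 5) on HFD without overlap, a log2 difference of 1.24 ± 0.22 (SE; limma adjusted p = 0.000459). In iPGC1a-/- on HFD it was at 9.40 ± 0.20 (SD, n = 6). Runx1, a factor of blood and immune cells that is also listed for tuft cells, fell by 1.20 ± 0.16 without overlap (SE; limma adjusted p = 3.2e-05). Hmx2 and Hmx3, homeobox factors, were at 0.31 and 0.37 for HFD and were not called.

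Of 5 tested eicosanoid enzymes, Ltc4s, the leukotriene C4 synthase that takes up the product of the Alox5 and Alox5ap step, rose on HFD. It went from 9.34 ± 0.20 (SD, n = 6) to 10.77 ± 0.18 (SD, n = 5) and 10.88 ± 0.18 (SD, n = 6) in iPGC1afl/fl and iPGC1a-/- mice, with no overlap with CHOW. The log2 differences were 1.43 ± 0.11 and 1.54 ± 0.11 (SE; limma adjusted p = 1.4e-07 and 1.1e-08). Alox5 itself was at 0.29 for HFD (limma adjusted p = 0.449) and Ptges at -0.05.

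Of 29 tested genes of signalling, receptors and cytoskeleton, 5 fell between HFD and CHOW and none rose. They were Limd2 at -1.06, Rac2 at -0.98, Fyb at -0.84, Ildr1 at -0.71 and Inpp5d at -0.65 (limma adjusted p of 0.00238 to 0.0194). In iPGC1a-/- on HFD against CHOW, 9 fell, these 5 with Vav1, Lrmp, Cd24a and Atp2a3, at between -1.35 and -0.59. Rac2, Fyb, Inpp5d and Vav1 are also signalling genes of lymphocytes and other leukocytes, as background. T cell markers moved in the same direction, with 7 of 7 called lower between HFD and CHOW, from -0.66 for Cd3e to -2.11 for Gzma. The summed scanned signal of these 7 was 14303 to 54157.5 units on CHOW, 4199 to 11192.5 in iPGC1afl/fl on HFD and 6078 to 15325 in iPGC1a-/- on HFD, and of the 4 B cell markers 3 were also called lower. On each array at least 6 of 7 T cell and 2 of 4 B cell markers were well above background. Their part in the fall of these signalling genes, of Runx1 and of Trpm5 was not tested.

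**Figure D5:**
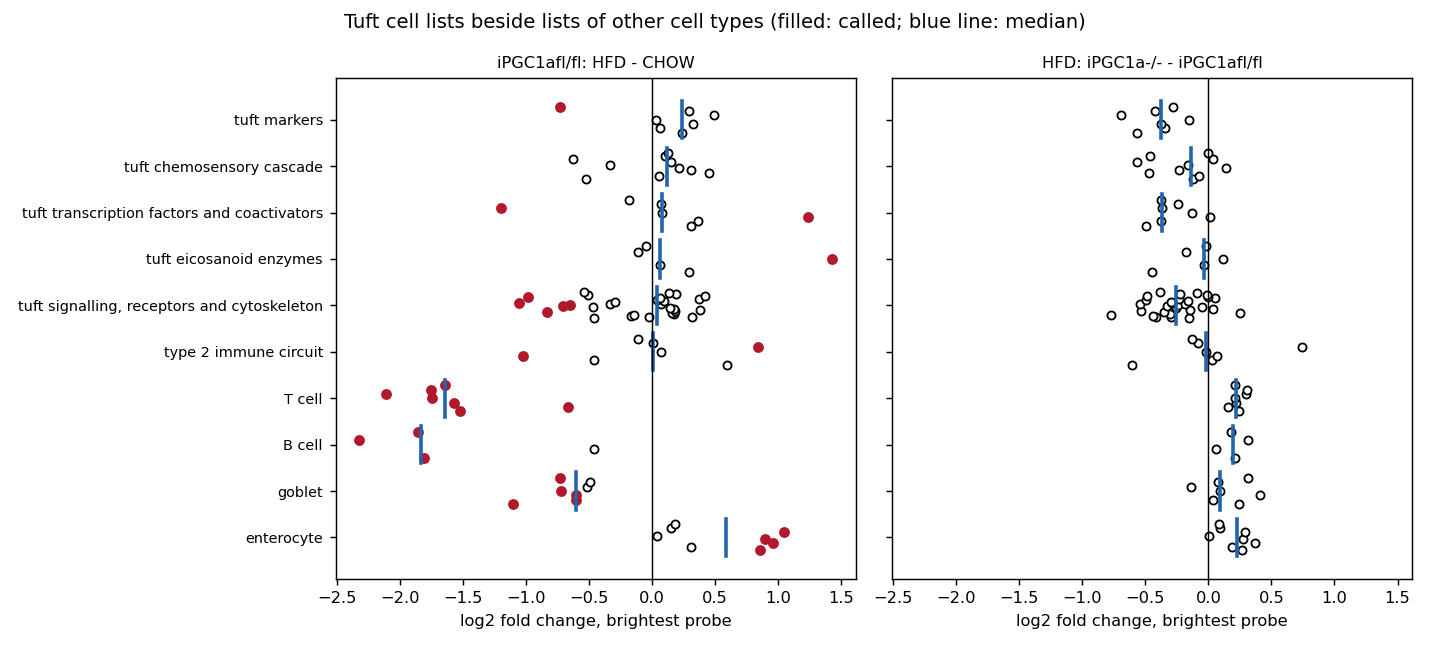
Log2 fold change of the brightest probe of each tested gene in the tuft lists and in 5 other lists, for diet (left) and genotype (right), filled where the gene was called, with the median of each list in blue. The T cell median is -1.64 for diet while the tuft marker median is 0.24, and no gene of these lists was called for genotype.

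Of the type 2 immune circuit, 7 of 12 listed genes were tested. Il33, an epithelial and stromal alarmin, was at 7.93 ± 0.60 (SD, n = 6) on CHOW, at 8.78 ± 0.29 (SD, n = 5) in iPGC1afl/fl on HFD and at 9.52 ± 0.31 (SD, n = 6) in iPGC1a-/- on HFD. Its log2 difference for HFD was 0.85 ± 0.23 (SE; limma adjusted p = 0.0149), and that between the genotypes was 0.74 (limma adjusted p = 0.391). Gata3, a factor of T cells and innate lymphoid cells, fell by 1.02 ± 0.16 on HFD without overlap (SE; limma adjusted p = 0.000178). Il13, the cytokine that favours tuft cells, was at 0.07 (limma adjusted p = 0.712). Il4 and Il5 did not pass the filter on dim probes.

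The POU octamer ATGCAAAT, the letters that POU class 2 factors such as Pou2f3 bind, was looked for on both strands in RefSeq promoters (assembly GRCm38.p6), 250 bases before to 50 after each start. It stood in none of the 7 promoters listed for 6 of the 9 members and in 1.74% of all 32851 promoters, a description of these letters in these windows only.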

How the data were processed

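RNA from ileum cells of 18 samples was measured on Agilent mouse arrays. Per the file headers, the authors deposited raw spot intensity values (median and mean signal, local background, processed signal) from Agilent Feature Extraction 10.10.1.1 without normalizing arrays to each other. A further deposited table holds log2 values, which the study's methods describe as filtered, batch-corrected and qsmooth-normalized, and the batches are not in the labels. Here, control spots were removed, as were 46 to 153 outlier spots on each array, and repeated spots were averaged. A probe was tested if 5 or more of 6 arrays of some group read it well above background, which left 32726 probes and 21542 genes. Log2 median signals underwent smooth quantile normalization (qsmooth, reimplemented, window 0.05; R 4.3.3). The limma 3.58.1 model held the 3 groups, and p-values were adjusted by Benjamini-Hochberg over every tested probe. The model had been planned for 18 samples, and 1 pair of arrays was averaged instead. The brightest probe stands for a gene where no probe is named. Single members were also compared with exact permutation tests over samples. Scripts were tested on simulated data.

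The members and lists were chosen with earlier results of these data known. The text names the 9 members, the genes of the tuft and type 2 lists that were called in any comparison, markers of other cells that moved with them, and the genes most like the members over the samples. Gng13, Plcb2, Sucnr1, Hmx2, Hmx3, Alox5, Ptges and Il13 were named after their values were seen. The labels set samples apart only by replicate number, so p-values measure the spread between these samples, which may be technical. No column of values lacked a sample. Alternatives were other backgrounds, normalizations, filters, thresholds, blocks and samples. The number of arrays limits the precision.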

Additional observations from a re-analysis of the deposited data

How the results depend on the processing

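The settings on the averaged arrays and on the share of spots well above background were chosen after seeing the data. The arrays under 58% include those of iPGC1afl/fl on HFD with high members, so the shifts without them follow in part from that choice. Trpm5 was called for HFD against CHOW in 31 of 34 alternatives that gave it a fit, with log2 differences of -1.19 to -0.58, and for both changes together in 34 of 34, and no member was called between the genotypes in any. At an adjusted p of 0.01 the number of members called for HFD was 0. Leaving out 1 array gave 0 to 1 members for HFD, 0 between the genotypes and 1 for both changes together, and without replicate 4 or 5 of iPGC1afl/fl on HFD the called member was Ptgs1, at 0.66 and 0.67. Without the fold threshold, 20 genes of the other tuft lists and the type 2 list, of 51 and 7 tested, passed for HFD, against 10 with it. For both changes together 28 passed, against 16. With the threshold, 8.49% and 13.3% of all tested genes were called in these comparisons. The share of all tested genes that passes without it was not determined, so the counts of 20 and 28 are no result about these lists. Without the arrays under 58% the HFD differences were -0.00112 (Dclk1), -0.40 (Gfi1b), -0.46 (Avil), -0.29 (Sh2d6) and -0.34 (Alox5ap), and the genotype differences 0.17 (Trpm5), 0.29 (Gfi1b), 0.19 (Avil), 0.17 (Sh2d6) and 0.068 (Alox5ap). With the share of spots as a covariate the HFD differences were -0.20 (Gfi1b) and -0.10 (Avil), and without both averaged arrays -0.078 and -0.090. Averaging all tested probes gave 0.033 for Sh2d6 with both changes. Leaving out 1 array at a time, the HFD differences ran from -0.021 to 0.43 (Alox5ap), -0.18 to 0.23 (Avil) and -0.18 to 0.14 (Gfi1b), the genotype difference of Gfi1b from -0.27 to 0.056, and that of Dclk1 for both changes from -0.17 to 0.026. The causes were not tested.

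The labels give no shared origin for a replicate number, and 9 of 18 pairs of same-numbered arrays had a correlation of deviations over 0.1, in a range of -0.22 to 0.35, so the numbers were not used to pair the samples. The fit with the replicate block gave 1892 called genes for HFD against 1828 and called Trpm5 at -0.71 (limma adjusted p = 0.0212), with no change of any member's call, and 8 of 18 arrays were closest to an array of their own number, which 2 of the 12 arrays compared with each carried. This is at most a hint of pairing from the data, not from the design. The counts of pairs and of closest arrays use all 18 arrays, so the averaged replicates 2 and 3 enter apart, under 2 numbers. Their correlations with the CHOW arrays of the same number were 0.22 and 0.16, both over 0.1. The slide as a block gave -0.73 for Trpm5 (limma adjusted p = 0.0362). Low signal over background limits Pou2f3 and Il25, which did not pass the filter.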

Other observations

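Markers of other cells of the ileum were counted in the same comparison of HFD with CHOW in iPGC1afl/fl mice, in which 8.49% of all tested genes were called. Of 8 enterocyte markers 4 rose, with a median log2 difference of 0.59 over the list, and of 7 goblet markers 5 fell, with a median of -0.60. Among enteroendocrine markers 1 of 8 fell, among crypt stem cell markers 1 of 5, among proliferation markers 1 of 4, and among macrophage and dendritic cell markers 1 of 4. None was called by limma of 5 Paneth, 5 mast and basophil, 2 megakaryocyte, 1 erythroid, 3 stromal and 4 enteric neuron markers tested, and 4 of these 20 had an unadjusted p under 0.05, beside 32.2% of all tested genes. Between the genotypes on HFD, limma called none of the 67 markers of other cells, and 7 had an unadjusted p under 0.05, beside 8.95% of all tested genes. Of these 7, 3 were among the 5 mast and basophil markers. In iPGC1a-/- on HFD against iPGC1afl/fl on CHOW, 1 of these 5 was called lower, beside 7.55% of all tested genes.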
